A study of Ambystoma mexicanum with 5 samples.

Results

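The genes described here encode fibronectin and 9 matricellular proteins, and their RNA was measured in kidneys of a salamander, the axolotl (Ambystoma mexicanum). They were FN1, TNC, POSTN, THBS1, THBS2, SPARC, SPP1, CCN1, CCN2 and TGFBI, and every gene model carrying 1 of these 10 symbols was taken as a row of its own. That gave 18 gene models of the 100758 in the deposited table, 17 of them with a count. RNA was sequenced from 2 kidneys of animals treated with gentamicin and from 3 kidneys of untreated control animals, 1 library per axolotl. Gentamicin is an aminoglycoside antibiotic that injures the proximal tubule, and the series uses it to study kidney regeneration. Dose, interval after treatment, strain, sex and age are not used here. The p-values set the difference between groups against the spread between these 5 animals, which was estimated with information shared across genes.

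Fibronectin is a large glycoprotein of plasma and of tissue cells that is laid down as a provisional matrix at sites of injury, on which cells attach and migrate. Matricellular proteins are secreted into the matrix but do not build it: they bind integrins, growth factors, proteases and matrix fibres and change how cells adhere and signal. In mammalian kidneys most of them are scarce or restricted to particular cells in health and are known to be induced during injury and fibrosis. No sequences of these genes were used here.

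The libraries held 15163723 and 16404879 counts in the gentamicin group, against 13674201, 15087765 and 14884904 in the control group. A floor of 3 counts, which is what a count of 0 leaves possible, came to 0.156 to 0.244 CPM (counts scaled to library size with TMM factors) and covers counting error only. Of 22006 genes tested with edgeR's quasi-likelihood test, 26.8% were called at a Benjamini-Hochberg adjusted p under 0.05, 13.3% higher and 13.4% lower after gentamicin (2931 and 2959 genes). With total-count scaling the split was 6192 higher and 1895 lower. Markers of the kidney were present. The 14 tested proximal tubule gene models were all lower after gentamicin, with a summed level of 488 to 508 CPM, against 7775 to 9409 CPM in controls. Among them LRP2, an endocytic receptor, averaged 97.7 ± 8.82 CPM after gentamicin and 1544 ± 319 CPM in controls (SD, n = 2 and 3, as for all means below). Podocyte markers, with 2 of 8 models higher and 1 lower, summed to 579 to 621 CPM after gentamicin and 568 to 685 CPM in controls.

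Of the 18 gene models, 16 had enough counts to be tested, 8 rose after gentamicin and 0 fell by edgeR, beside 13.3% of all tested genes higher. One of the 8, the CCN2 model AMEX60DD027636, reached the filter on low counts through the gentamicin libraries alone, which favours a difference. Without that model 7 of 15 models were higher, with a median log2 fold change of 0.78. Over all 16 models 10 were higher and 0 lower at an unadjusted p under 0.05, beside 19% of all genes in each direction and 38.1% in either. In DESeq2, limma-voom and total-count scaling 10 models were higher, beside 13.6%, 14.2% and 28.1% of all genes, and 11 were without control 3, beside 12.2%. The number was 6 without gentamicin 1, without gentamicin 3 and on unfiltered FPKM, beside 5.73%, 5.9% and 4.5%. In 10 of the 16 both gentamicin libraries lay above every control, a pattern seen in 28.6% of all tested genes, with 26.7% the other way and 55.3% in either direction. In the other 6 models the groups overlapped. AMEX60DD027636, favoured by the filter, is among the 10 without overlap. It is also among the models higher at an unadjusted p under 0.05, in DESeq2, limma-voom and total-count scaling, and without control 3. The median log2 fold change of the 16 was 1.05, beside 0.0075 over all tested genes. The counts and medians do not describe the 2 models that were not tested. By symbol, FN1, TNC, TGFBI, THBS1 and THBS2 rose, and POSTN and SPARC were not called. SPP1, CCN1 and CCN2 each had called and uncalled gene models. The called models named CCN1 and CCN2 shared 0 flanking genes with these genes in the RefSeq assembly UKY_AmexF1_1. Together the 18 models took 0.411% and 0.395% of counts after gentamicin, against 0.183%, 0.174% and 0.238% in controls. In bulk tissue, more cells of a type and more RNA per cell cannot be told apart.

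**Figure D1:**
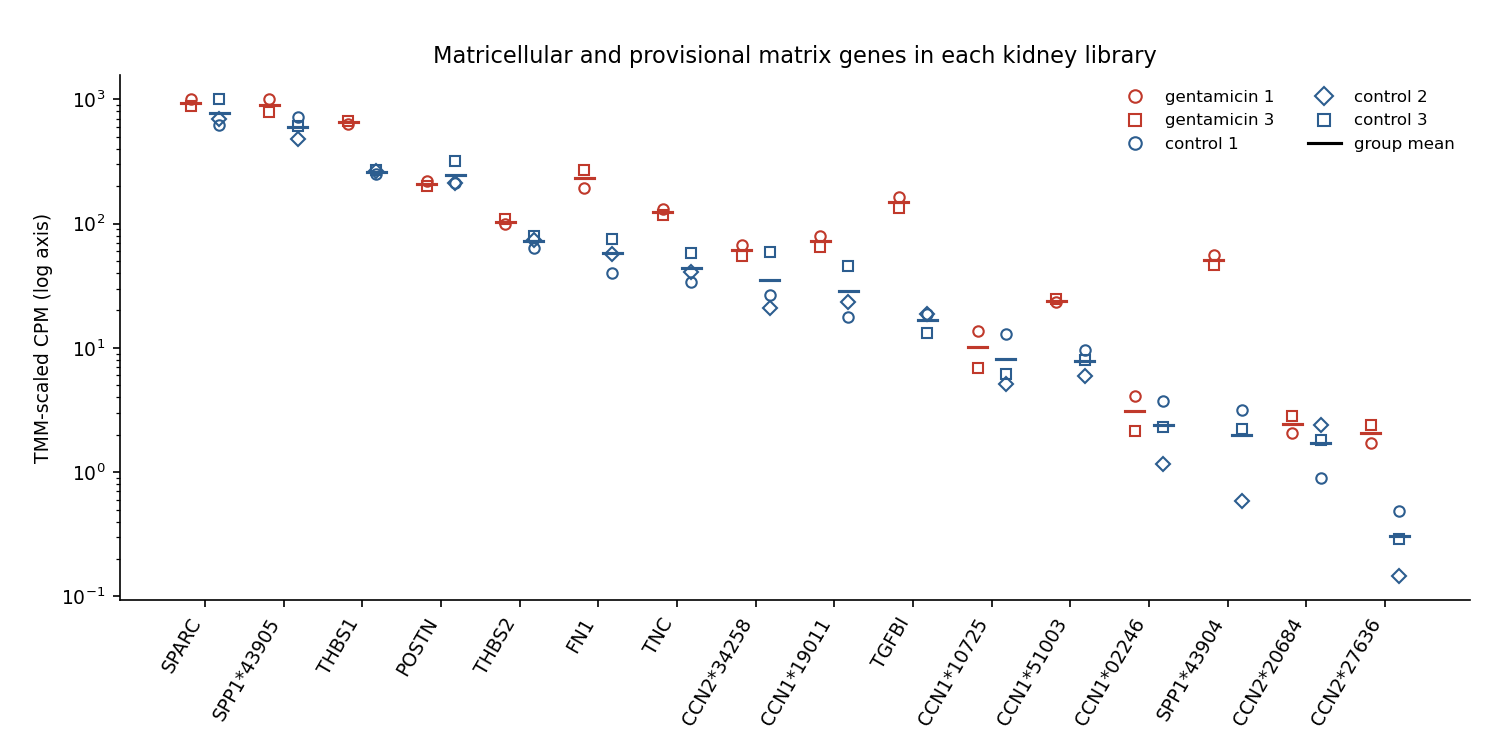
TMM-scaled CPM (log axis) of 16 gene models in each of 5 libraries, gentamicin left of control, with bars at group means. Symbols with several models carry the last 5 digits of the gene identifier after an asterisk, and the shorter SPP1 model and TGFBI show the widest gaps between groups.

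FN1 encodes fibronectin itself. Its gene model AMEX60DD055420 (chromosome 9q, 344493976 to 344596044, plus strand) stood at 192 and 270.4 CPM in the gentamicin kidneys, against 39.9, 57.4 and 75.8 CPM in controls. Both treated kidneys lay above all controls. FN1 rose 4.01-fold, with means of 231 ± 55.3 CPM after gentamicin and 57.7 ± 17.96 CPM in controls (log2 2.003 ± 0.28, SE, by edgeR with adjusted p = 0.00378).

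TNC encodes tenascin-C, a hexameric glycoprotein that in mammals appears in wounds and during development and that binds fibronectin. AMEX60DD050822 (chromosome 8p, 255984783 to 256143292, minus strand) had 132 and 118 CPM after gentamicin, against 33.6, 41.0 and 58.1 CPM in controls, without overlap. The increase was 2.82-fold, or 1.497 ± 0.22 on the log2 scale (SE; edgeR adjusted p = 0.00241).

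TGFBI and POSTN encode related secreted proteins built of fasciclin domains, which bind integrins and collagen. TGFBI, named for its induction by TGF-beta, had 162 and 135 CPM after gentamicin, against 18.7, 18.7 and 13.1 CPM in controls. It rose 8.82-fold (log2 3.14 ± 0.18, SE; edgeR adjusted p = 1.11e-05), and control 3, the highest control for FN1 and TNC, was the lowest here. Its model AMEX60DDU001002594 lies on the unplaced contig C0014451 (16309 to 280756, plus strand), where no flanking gene carries a symbol. POSTN, or periostin, had 219 and 201 CPM after gentamicin, against 214, 212 and 318 CPM in controls (AMEX60DD049175, chromosome 7q, 573261852 to 573369190, minus strand). The groups overlapped, with 1 treated kidney between the controls and the other below them, and control 3 was the highest library. On the log2 scale the difference was -0.24 ± 0.19 (SE; edgeR adjusted p = 0.411), and with total-count scaling, which moves the gene-wide median up by 0.32 (log2), it was 0.07 (adjusted p = 0.801). Whether the responses of TGFBI and POSTN differed was not tested.

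The thrombospondins THBS1 and THBS2 are secreted calcium-binding glycoproteins that bind CD36 and CD47 and inhibit angiogenesis, and THBS1 also activates latent TGF-beta in mammals. THBS1 had 637 and 667 CPM after gentamicin, against 253, 266 and 268 CPM in controls (AMEX60DD012285, chromosome 14q, 432175370 to 432263606, minus strand). Both groups were narrow and far apart. THBS1 rose 2.49-fold (log2 1.32 ± 0.11, SE; edgeR adjusted p = 7.22e-05). THBS2 had 98.6 and 109 CPM after gentamicin, against 63.4, 73.4 and 79.8 CPM in controls (AMEX60DD034565, chromosome 4p, 1184309420 to 1184699531, plus strand). It rose 1.44-fold, with no overlap between groups (log2 0.52 ± 0.13, SE; edgeR adjusted p = 0.0194). The THBS2 call was lost without gentamicin 1 (0.0723) or gentamicin 3 (0.157), and on unfiltered FPKM (0.0782). Whether the responses of THBS1 and THBS2 differed was not tested.

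SPARC, or osteonectin, is a collagen-binding protein of basement membranes and stroma. It had 1008 and 879.8 CPM after gentamicin, against 621, 694 and 1010.3 CPM in controls (AMEX60DD030096, chromosome 3q, 652852292 to 652884673, minus strand). Control 3 was the highest of the 5 libraries, so the groups overlapped. On the log2 scale the difference was 0.28 ± 0.21 (SE; edgeR adjusted p = 0.374), and without control 3 it was 0.50 (adjusted p = 0.0418).

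**Figure D2:**
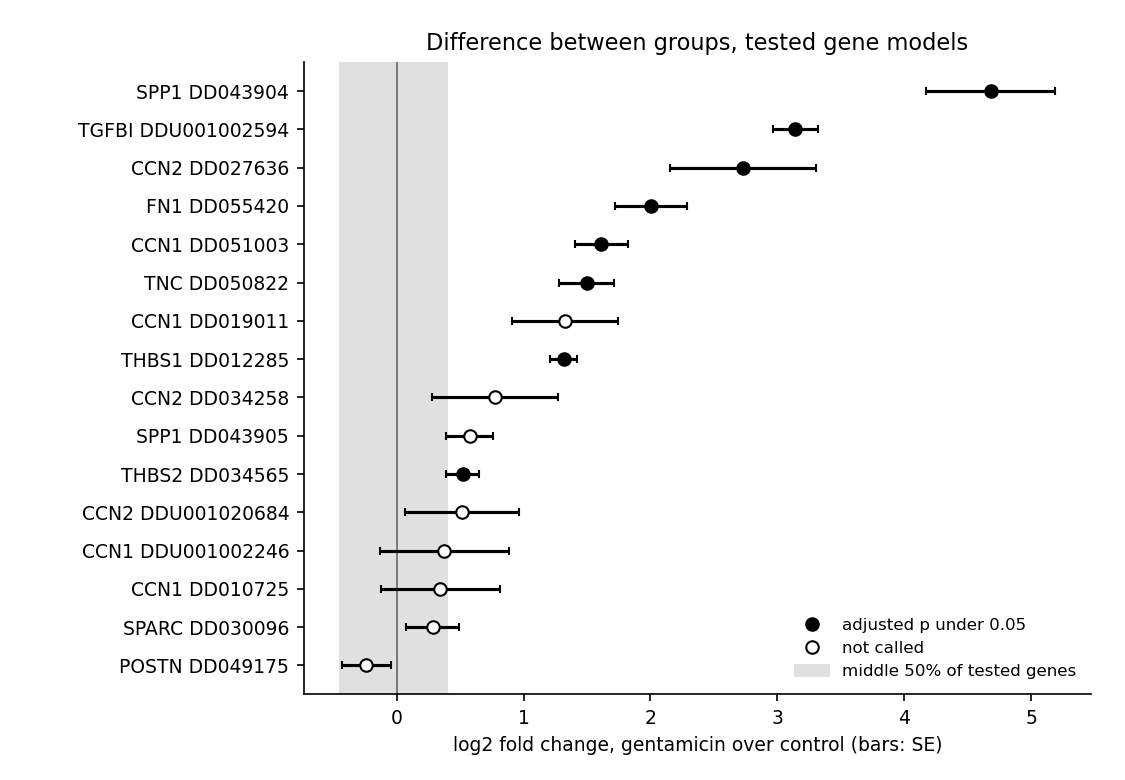
Log2 fold change of gentamicin over control with SE for 16 tested gene models, filled where the adjusted p was under 0.05. The grey band spans the quartiles of all tested genes, -0.45 to 0.40, and the model of POSTN is the one at a negative value.

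SPP1 encodes osteopontin, a secreted phosphoprotein that binds integrins and CD44 and is made by tubule cells and macrophages in mammals. Its models AMEX60DD043904 (chromosome 6q, 42566462 to 42595957) and AMEX60DD043905 (42747869 to 43329097) lie on the minus strand, 152 kb apart, and could be parts of 1 gene. The shorter one, with 2217 bases of exon, had 55.5 and 46.3 CPM after gentamicin, against 3.17, 0.582 and 2.24 CPM in controls. These values came from 933 and 890 counts after gentamicin, against 39, 8 and 31 in controls. It rose 25.7-fold, the highest fold among the tested members (log2 4.68 ± 0.51, SE; edgeR adjusted p = 0.00227). The longer one, with 18341 bases of exon, had 1009 and 789 CPM after gentamicin, against 717, 482 and 610.4 CPM in controls, without overlap but not called (log2 0.58 ± 0.19, SE; edgeR adjusted p = 0.0555). It was called without control 1 (0.0202), in DESeq2 (0.0255), in limma-voom (0.0494), with total-count scaling (log2 0.89) and without the filter on low counts (0.00014). The shorter model took 5.22% and 5.54% of SPP1 counts after gentamicin, against 0.441%, 0.121% and 0.366% in controls, without overlap between groups. Summed over both models, SPP1 rose 1.57-fold (adjusted p = 0.036). The longer model also spans TSC22D2 on the opposite strand, which had 116 and 97.2 CPM after gentamicin, against 32.4, 37.1 and 58.2 CPM in controls. Without a stated strand setting, reads shared by overlapping genes cannot be assigned, and the part of TSC22D2 reads in the SPP1 value was not tested.

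CCN1 (formerly CYR61) and CCN2 (formerly CTGF) encode cysteine-rich proteins that bind integrins and heparan sulphate and are in mammals known targets of YAP and TGF-beta. Among 5 models named CCN1, AMEX60DD019011 carries both names and lies on chromosome 1q (976997166 to 977002450, minus strand). Among 4 named CCN2, AMEX60DD034258 does so on chromosome 4p (1011902712 to 1011907878, plus strand). Of the 10 named genes around each, 7 and 8 also flank CCN1 and CCN2 in the RefSeq assembly UKY_AmexF1_1, among them DDAH1, BCL10 and ZNHIT6 for CCN1 and MOXD1, STX7 and ENPP1 for CCN2. The other models shared 0 flanking genes with CCN1 or CCN2, or lie on contigs without named neighbours. Their names rest on the deposited annotation alone. AMEX60DD027636 is also named CCN5, lies among ADA, PKIG, SERINC3 and TTPAL, and may be CCN5 and not CCN2. Of the single models, SPARC shared 8 flanking genes, FN1 and POSTN 7, TNC 6, and THBS1 and THBS2 4. SPP1 matched no symbol in RefSeq, so the flanking genes of its models could not be compared.

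The CCN1 model on 1q had 80.3 and 64.9 CPM after gentamicin, against 17.8, 23.3 and 45.4 CPM in controls. The groups did not overlap, but the model was not called (log2 1.33 ± 0.42, SE; edgeR adjusted p = 0.0799), with control 3 between the other controls and the treated kidneys. It was called without control 3 (log2 1.79, adjusted p = 0.000526), in DESeq2 (0.00152), in limma-voom (0.0425), with total-count scaling (0.0389) and on filtered FPKM (0.0466). The CCN2 model on 4p had 67.0 and 54.6 CPM after gentamicin, against 26.5, 20.8 and 59.0 CPM in controls. Here control 3 lay between the treated kidneys, and the difference was not called (log2 0.78 ± 0.50, SE; edgeR adjusted p = 0.334) unless control 3 was left out (1.34, adjusted p = 0.00159).

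Among the other CCN1 models AMEX60DD051003 (chromosome 8p, 340107264 to 340162548, minus strand) rose 3.06-fold, with 23.4 and 24.7 CPM after gentamicin, against 9.69, 5.96 and 7.95 CPM in controls (edgeR adjusted p = 0.000811). AMEX60DD010725, which lies beside CCN4 on chromosome 13q, had 13.6 and 6.92 CPM after gentamicin, against 12.9, 5.16 and 6.21 CPM in controls, with overlap (adjusted p = 0.648). AMEX60DDU001002246 had 4.11 and 2.13 CPM after gentamicin, against 3.74, 1.16 and 2.31 CPM in controls (adjusted p = 0.641), and AMEX60DDU001002248, which overlaps it on the opposite strand, had 0 counts in all 5 libraries. In both of these expressed models the number 1 library was the highest of its group. Summed over the models named CCN1, the counts rose 2.33-fold (edgeR adjusted p = 0.00832). Only AMEX60DD019011 shared flanking genes with CCN1, so this sum may hold more than 1 gene.

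The remaining CCN2 models had few counts. AMEX60DD027636, which the annotation names both CCN5 and CCN2, had 29 and 46 counts after gentamicin, against 6, 2 and 4 in controls. It passed the filter only through the group where it is high, so its edgeR adjusted p of 0.00951 is given as a description. That p was above 0.05 without gentamicin 1 (0.058) or gentamicin 3 (0.14) and on unfiltered FPKM (0.0515). AMEX60DDU001020684 had 2.08 and 2.81 CPM after gentamicin, against 0.895, 2.40 and 1.81 CPM in controls (adjusted p = 0.447). AMEX60DD005503, with 1 and 9 counts after gentamicin, against 0, 2 and 4 in controls, was not tested. Summed over the models named CCN2, with AMEX60DD027636 among them, the counts were not called (edgeR adjusted p = 0.282).

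**Figure D3:**
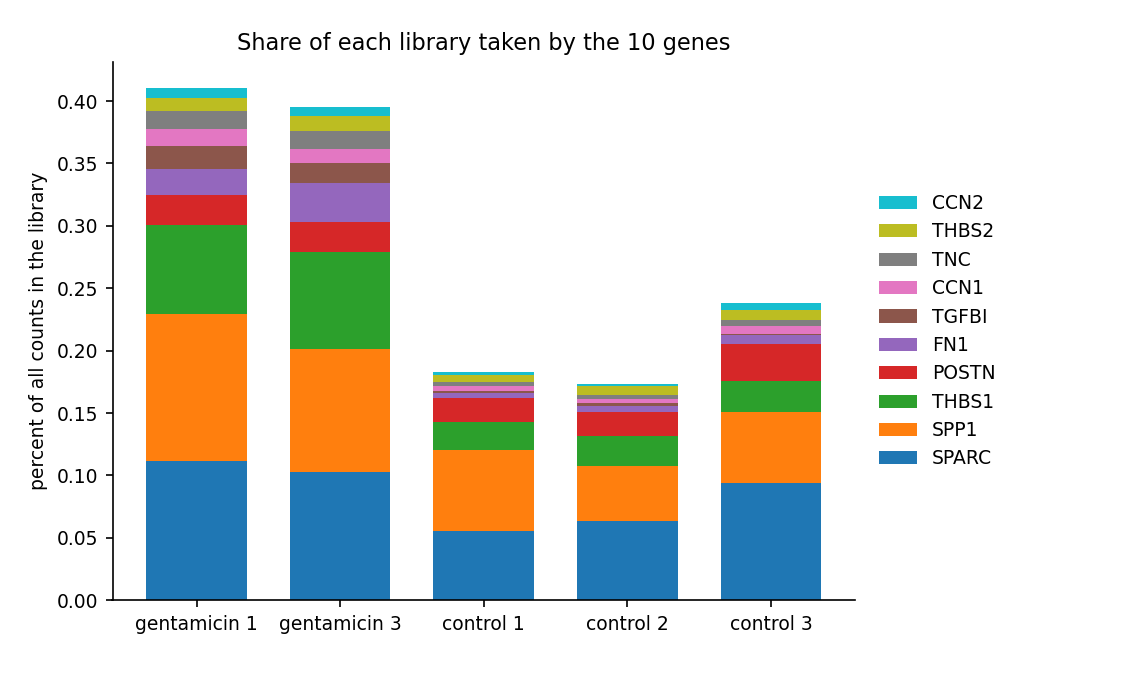
Percent of all counts in each library taken by the 10 genes, models of a symbol summed, for 2 gentamicin and 3 control libraries. The bars reach 0.411% and 0.395% after gentamicin, against 0.174% to 0.238% in controls, and SPARC and SPP1 form the lower segments in each bar.

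Levels can be set beside each other per length, as the FPKM deposited by the authors (fragments scaled to exon length and library size). For the longer SPP1 model the FPKM rests on its annotated 18341 bases of exon, which were not checked. That model also spans TSC22D2, so its place in the orders below is uncertain. After gentamicin SPARC led with 117 ± 10.99 FPKM, followed by THBS1 with 98.1 ± 3.48, the longer SPP1 model with 48.1 ± 8.18, POSTN with 45.4 ± 2.62, TGFBI with 38.0 ± 4.93 and FN1 with 26.8 ± 6.48 (SD, n = 2). In controls SPARC led with 95.9 ± 25.03 FPKM, followed by POSTN with 53.4 ± 12.8, THBS1 with 39.3 ± 1.04 and the longer SPP1 model with 32.2 ± 6.35 (SD, n = 3). TGFBI stood at 4.30 ± 0.839 FPKM in controls, where its range overlapped that of TNC, and FN1 at 6.65 ± 2.03. The longer SPP1 model and POSTN overlapped in range after gentamicin, as did THBS1 and the longer SPP1 model in controls. After gentamicin FN1 overlapped CCN2 on 4p (23.7 FPKM), which overlapped CCN1 on 1q (22.5 FPKM), which overlapped the shorter SPP1 model (22.5 FPKM). The shorter SPP1 model lay apart from THBS2, the next in order, and THBS2 overlapped TNC. In controls every neighbour from CCN2 on 4p (13.75 FPKM) through THBS2, CCN1 on 1q, FN1, TNC and TGFBI to CCN1 on 13q (3.27 FPKM) overlapped the next. As a share of all member counts, SPARC took 27.2% and 26.1% after gentamicin, against 30.5%, 36.5% and 39.5% in controls, and THBS1 took 17.2% and 19.8% after gentamicin, against 12.4%, 14.0% and 10.47% in controls. With models of a symbol summed, the shares of FN1, TNC, TGFBI, THBS1 and CCN1 were higher in both gentamicin libraries than in any control. Of the 10 symbols, SPARC and POSTN had lower shares, and those of SPP1, THBS2 and CCN2 overlapped. A share depends on the other members, and the CPM of SPARC and POSTN were not called.

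Control 3 was above both other controls in 9 of the 17 expressed models, beside 32.6% of all tested genes. The models were those of FN1, TNC, POSTN, THBS1, THBS2 and SPARC, the flank-matched models of CCN1 and CCN2, and AMEX60DD005503. Its level over the mean of controls 1 and 2 was 2.50 for CCN2 on 4p, 2.204 for CCN1 on 1q, 1.56 for FN1, 1.56 for TNC, 1.54 for SPARC and 1.496 for POSTN, against a median of 0.994 over all tested genes. Part of the fibroblast markers also stood high in that library. COL1A1, a chain of type I collagen, had 3343 CPM in control 3, against 1851 and 1924 CPM in controls 1 and 2. Of 13 marker models 7 were above both other controls. The rest, both PDGFRB models, ACTA2, TAGLN, MYH11 and a LUM model with few counts, lay between controls 1 and 2. The part of fibroblast content in these values was not tested.

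**Figure D4:**
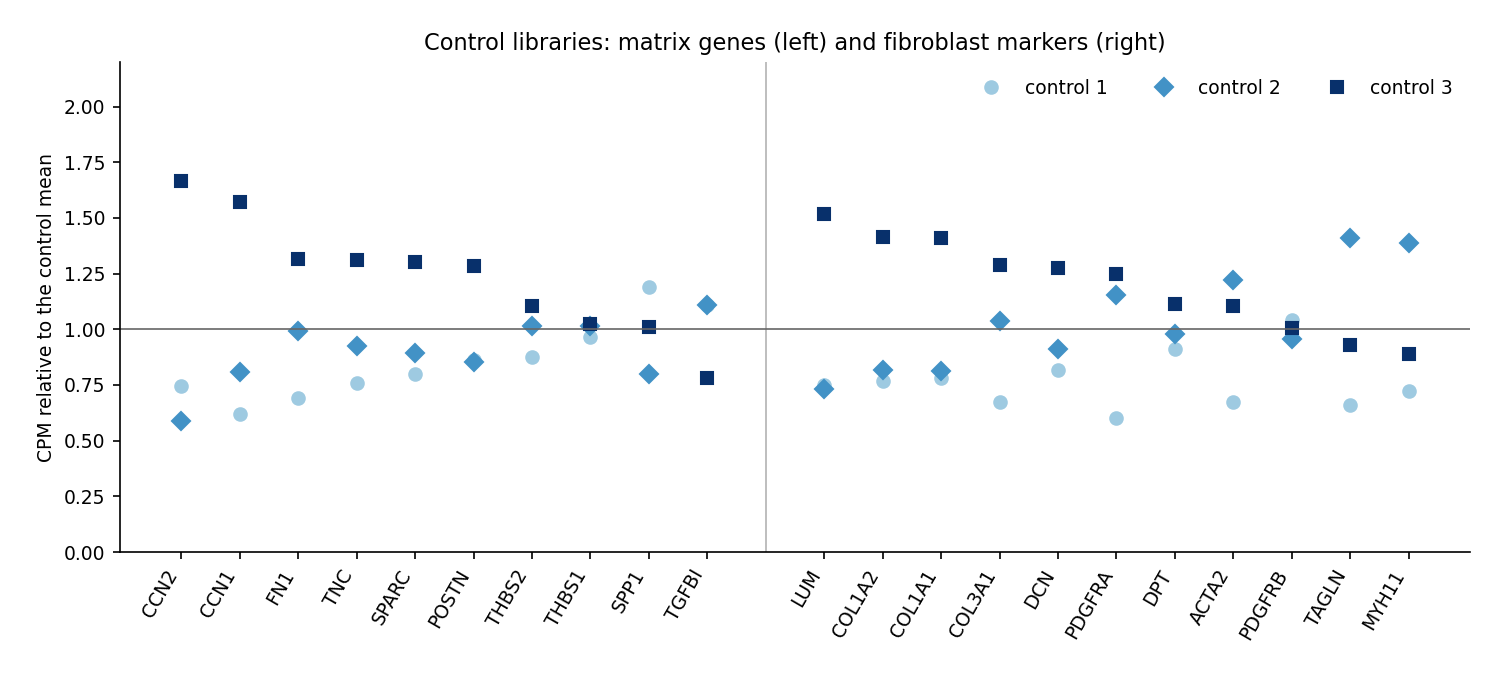
CPM of each control library relative to the mean of the 3 controls, for member models (left) and fibroblast markers (right) with a control mean of at least 10 CPM. Control 3 sits above the others for CCN2, CCN1, FN1, TNC, SPARC and POSTN and for LUM, COL1A2, COL1A1, COL3A1 and DCN. It lies between them for PDGFRB, ACTA2, TAGLN and MYH11.

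Markers of cell types that can make these proteins moved unequally between groups. The counts of called models below stand beside 13.3% of all tested genes higher and 13.4% lower by edgeR. Fibroblast markers summed to 7169 to 7408 CPM after gentamicin and 4757 to 8547 CPM in controls. COL1A1 averaged 2071 ± 63.6 CPM after gentamicin and 2372 ± 841 CPM in controls (adjusted p = 0.646). PDGFRA, a receptor of interstitial fibroblasts, was the single call among 12 tested models by edgeR, with 45.1 and 51.6 CPM after gentamicin, against 14.1, 27.1 and 29.3 CPM in controls (edgeR adjusted p = 0.0469). In DESeq2 and at an unadjusted edgeR p under 0.05, 2 models were higher and 0 lower, beside 13.6% and 19% of all genes higher. COL3A1 had 2682 and 2696 CPM after gentamicin, against 1128, 1729 and 2152 CPM in controls, without overlap but not called (edgeR adjusted p = 0.0871). ACTA2, the actin of smooth muscle and myofibroblasts, had 417 and 218 CPM after gentamicin, against 167, 303 and 274 CPM in controls, and was not called. Macrophage markers rose in 11 of 13 tested models and summed to 1782 to 2137 CPM after gentamicin, against 152 to 229 CPM in controls. CSF1R, the macrophage growth factor receptor, had 200.1 and 190.0 CPM after gentamicin, against 35.4, 39.6 and 26.6 CPM in controls, while CD163 had no counts. Endothelial markers summed to 442 to 484 CPM after gentamicin and 466 to 573 CPM in controls, with 1 of 15 models higher and 1 lower. PECAM1, an adhesion molecule of endothelium, averaged 51.2 ± 5.48 CPM after gentamicin and 63.9 ± 4.55 CPM in controls and was not called. Thrombocyte markers summed to 40.9 to 42.4 CPM after gentamicin and 23.5 to 33.3 CPM in controls, with 0 of 8 models called by edgeR, DESeq2 or limma-voom and 1 (GP1BB) at an unadjusted p under 0.05. Distal nephron markers fell in 11 of 12 tested models and summed to 4873 to 5519 CPM after gentamicin, against 9534 to 11127 CPM in controls, and SLC12A1, a salt transporter, averaged 1025 ± 56.4 CPM after gentamicin and 1465 ± 134 CPM in controls. The part of these cell types in the members' values was not tested.

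Genes that act with the members were counted in 4 lists, leaving out 3 models already taken as CCN1 or CCN2. Over the 113 tested models of these lists 32 rose and 12 fell (28.3% and 10.6%, beside 13.3% and 13.4% of all tested genes), with a median log2 fold change of 0.32. Among the 12, TNN and SMOC1 passed the filter on low counts only through the controls, which favours a difference. EDIL3, which was not called, passed it only through the gentamicin libraries. With total-count scaling 63 models rose and 5 fell, beside 28.1% and 8.61% of all tested genes. Fewer models fell without gentamicin 1 or without gentamicin 3, and so did fewer of all tested genes.

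Enzymes and inhibitors that cut or crosslink these proteins rose in 11 of 20 tested models by edgeR, beside 13.3% of all tested genes. By edgeR, DESeq2 or limma-voom or at an unadjusted p under 0.05, 0 fell, beside 13.4% of all tested genes by edgeR. Their median log2 fold change was 0.79. The plasminogen activators PLAT and PLAU, proteases that start fibrin breakdown, rose. PLAT averaged 90.1 ± 1.30 CPM after gentamicin and 23.6 ± 0.307 CPM in controls, a 3.82-fold increase. PLAU averaged 36.7 ± 5.80 CPM after gentamicin and 7.18 ± 0.461 CPM in controls, a 5.10-fold increase. LOX, which crosslinks collagen and elastin, rose 7.63-fold. PLAT and LOX each had 2 models with counts, and the values are those of the single model called for each. F13A1, the transglutaminase that crosslinks fibrin and fibronectin, rose 4.96-fold, with 83.2 and 77.2 CPM after gentamicin, against 18.2, 17.1 and 13.3 CPM in controls. In mammals F13A1 is made by macrophages, whose markers rose as given above, and their part in the F13A1 value was not tested.

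Receptors rose in 8 of 23 tested models and fell in 1, beside 13.3% and 13.4% of all tested genes. Their median log2 fold change was 0.39. All 4 models of LRP1, an endocytic receptor that clears thrombospondins, rose by 2.75-fold to 3.64-fold, and as neighbours on the plus strand of chromosome 3q they may be 1 gene. ITGB1, the integrin beta subunit of most fibronectin receptors, had 837 and 775 CPM after gentamicin, against 594, 499 and 537 CPM in controls, and rose 1.48-fold (edgeR adjusted p = 0.0112, or 0.0736 without gentamicin 1, where the call was lost). ITGAV, an integrin subunit of receptors for osteopontin and periostin, averaged 112 ± 8.20 CPM after gentamicin and 125 ± 7.56 CPM in controls. It was not called (log2 -0.17, or 0.16 with total-count scaling, edgeR adjusted p = 0.335 and 0.351). Of 3 tested CD44 models 0 were called by edgeR, DESeq2 or limma-voom, at means of 6.21 to 8.14 CPM after gentamicin and 3.92 to 6.20 CPM in controls (edgeR adjusted p from 0.0697 to 0.686, with 1 at an unadjusted p under 0.05), and AMEX60DDU001040132 was called with total-count scaling (0.0129). ITGB3, named because it was the single model that fell, averaged 17.5 ± 3.28 CPM after gentamicin and 33.1 ± 5.74 CPM in controls (edgeR adjusted p = 0.00959). Its call was lost without gentamicin 1, on unfiltered FPKM and with total-count scaling. With that scaling 14 receptor models were higher, beside 28.1% of all tested genes.

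A list of other matrix and related proteins, not limited to these families, went both ways. Of its 35 tested models 6 were higher and 7 lower, beside 13.3% and 13.4% of all tested genes. The list also holds the scavenger receptors STAB1 and STAB2. STAB1 was among the lower models, and both tested STAB2 models were among the higher ones. The median log2 fold change of the list was -0.17. The lower models TNN and SMOC1 passed the filter on low counts only through the controls, and EDIL3, which was not called, only through the gentamicin libraries. Without these 3, 6 of 32 models were higher and 5 lower. CCN4, a relative of CCN1 and CCN2, rose 3.11-fold in its model AMEX60DD040548, to 38.9 ± 0.270 CPM after gentamicin, against 12.5 ± 2.55 CPM in controls (edgeR adjusted p = 0.000284). A second CCN4 model, AMEX60DD010721, averaged 13.4 CPM after gentamicin and 16.5 CPM in controls, with overlap (log2 -0.30, edgeR adjusted p = 0.443). It shares the deposited name LOC115466278 with the CCN1 model AMEX60DD010725, and both could be parts of the same gene. VCAN, or versican, a large proteoglycan of provisional matrix, had 206 and 232 CPM after gentamicin, against 97.8, 105 and 133 CPM in controls, a 1.95-fold increase. FBLN7, a fibulin, rose 2.21-fold, while FGB, the beta chain of fibrinogen, fell to 10.6 ± 0.774 CPM after gentamicin, against 23.2 ± 1.66 CPM in controls (edgeR adjusted p = 0.000968). Of this list 12 models were higher and 3 lower with total-count scaling, beside 28.1% and 8.61% of all tested genes. Fewer were lower without gentamicin 1 or without gentamicin 3, and fewer were higher without gentamicin 1. Over all tested genes, calls in either direction were also fewer in both fits.

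Regulators of the TGF-beta and YAP pathways rose in 7 of 35 tested models and fell in 4, beside 13.3% and 13.4% of all tested genes. Their median log2 fold change was 0.29. TGFBR2, the type II receptor for TGF-beta, had 131 and 135 CPM after gentamicin, against 64.2, 63.0 and 66.4 CPM in controls, a 2.06-fold increase (edgeR adjusted p = 0.000192). TGFB2, a ligand, had 24.1 and 21.4 CPM after gentamicin in its stronger model, against 8.47, 9.60 and 11.8 CPM in controls, a 2.28-fold increase. LTBP1, which holds latent TGF-beta on fibronectin and fibrillin, rose 1.82-fold, and AMOTL2, a YAP target and inhibitor, rose 1.97-fold. TGFBR2 had 2 models with counts and LTBP1 had 3, and the values are those of the single model called for each. The models that fell, named because they were few, were a second TGFB2 model, at 1.80 ± 0.0252 CPM after gentamicin and 5.54 ± 1.12 CPM in controls, and 3 models of LTBP4 on chromosome 2q. The lower calls were lost without gentamicin 1 or gentamicin 3, and fewer models were higher without gentamicin 1. In these fits a lone treated library was left, and fewer of all tested genes were called too. Without control 2 the lower calls numbered 2, beside 12.2% of all tested genes. With total-count scaling 21 regulators were higher and 2 lower, beside 28.1% and 8.61% of all tested genes. TGFB1 matched no gene name and was not analysed here.

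**Figure D5:**
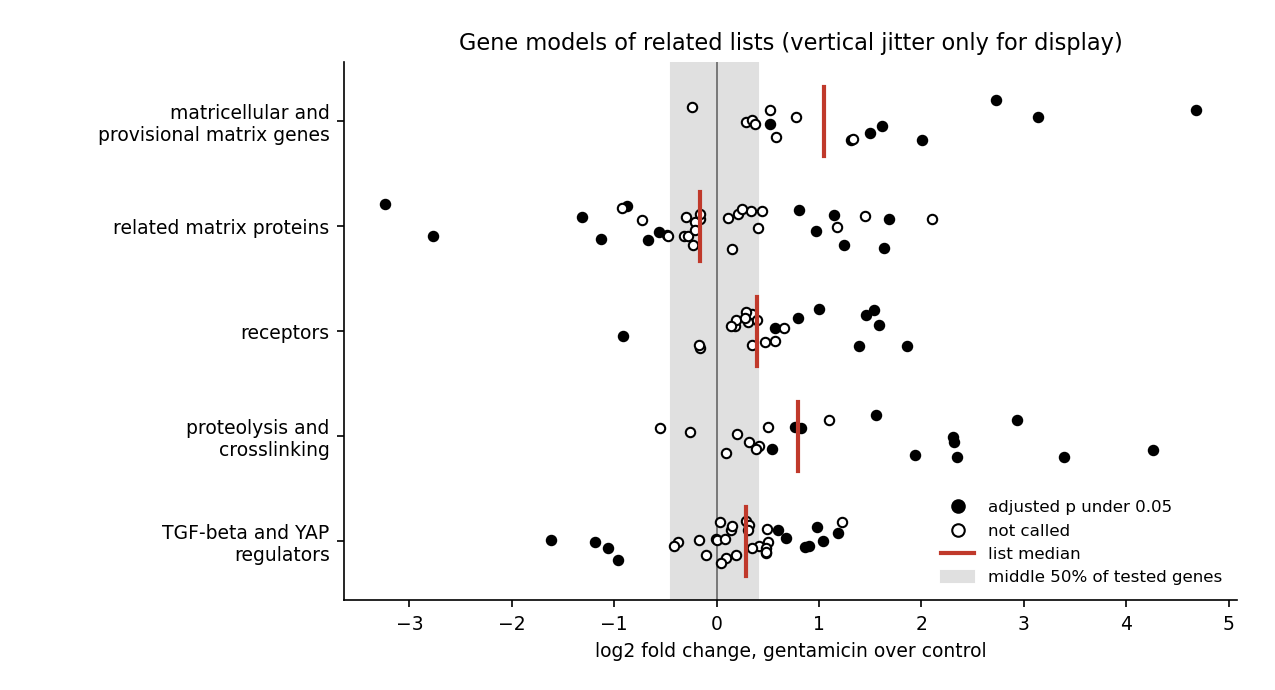
Log2 fold change of gentamicin over control for each tested gene model of the members and of 4 related lists, with list medians in red and filled points at an adjusted p under 0.05. The medians run from -0.17 for related matrix proteins to 0.79 for proteolysis and crosslinking and 1.05 for the members. Without the CCN2 model AMEX60DD027636, which passed the filter on low counts only through the gentamicin libraries, the member median was 0.78.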

How the data were processed

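Kidney RNA was sequenced from 5 axolotls. Per the labels' protocols, extraction used TRIzol and library preparation an NEBNext Ultra kit. Alignment and counting tools in the submitters' processing notes are HISAT2 2.0.5 and featureCounts 1.5.0-p3, beside fastp, CASAVA 2.19 and DESeq2 1.20.0. Neither strand setting nor genome build is given in the sources used here. The authors deposited raw read counts (in the table named for FPKM) and FPKM values (in the table named for counts), and coordinates are those of these tables. Genes passing filterByExpr (at least 10 counts, total of at least 15) were scaled with TMM and tested with edgeR 4.0.16 in R 4.3.3, a quasi-likelihood model with group as its term, two-sided, with Benjamini-Hochberg adjustment over 22006 genes. The procedure was run on simulated data with as many genes raised as lowered, which does not test the scaling of these libraries. The libraries differed from each other (chi-square per degree of freedom of counts at least 9.33), so none was counted as a copy.

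The members and lists were chosen with earlier results of these data known. Named were all member models with a count, up to 4 models of each related list by smallest p with a mean log2 CPM of at least 1, ITGAV, ITGB1, CD44, PLAU and TGFB1, and of the markers PDGFRA, COL1A1, ACTA2, CSF1R, PECAM1, LRP2 and SLC12A1. One further gene named by this rule is not reported here. ITGB3, GP1BB, TNN, SMOC1, EDIL3, STAB1, STAB2, COL3A1 and the fallen TGFB2 and LTBP4 models were added after their values were seen. RefSeq gene symbols served only to compare flanking genes, 5 named genes a side. Alternatives were DESeq2 1.42.0, limma-voom (limma 3.58.1), other scalings and filters, a replicate block, each library left out, limma on log2(FPKM + 1) or log2(FPKM + 0.1), and models of a symbol summed.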

Additional observations from a re-analysis of the deposited data

How the results depend on the processing

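Under all alternatives 0 member models were lower, and the number higher was 6 to 11 against 8. No alternative reversed a called member or a called related model named by the rule above. The related models added after their values were seen, and those not named, were not in this check. Of the members, 239 values kept their side of the threshold, 13 passed it and 7 lost it. Over all genes 2931 were higher and 2959 lower. Total-count scaling gave 6192 and 1895, and 63 higher and 5 lower models in the related lists, against 32 and 12. Unfiltered FPKM gave 1796 and 1828, and 1 lower related model, and filtered FPKM gave 7 with either pseudocount. With 1 library left out, 1333 to 2770 genes were higher and 1627 to 2963 lower, and 23 to 38 related models were higher and 2 to 12 lower. Without a gentamicin library the lone sample left is assumed to vary like the controls.

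The numbers in the labels are shared by 2 pairs, whose deviations from the group means correlated at -0.0363 and 0.0621. With 2 gentamicin libraries, the deviations of gentamicin 1 and gentamicin 3 mirror each other. These values are therefore not independent and cannot exclude a pairing, which the labels do not state. With the replicate block 2118 genes were higher and 2367 lower, 7 members were higher (beside 9.62% of all genes; CCN2 AMEX60DD027636 had an adjusted p of 0.054) and 0 lower, and 32 related models were higher and 8 lower. The 2 gentamicin libraries set the precision, and models under 10 counts in a group are limited by depth.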
